A study of Mus musculus with 12 samples.

Results

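The genes described here are the 3 Gadd45 genes (Gadd45a, Gadd45b and Gadd45g) and 7 kinases of the cascade below them, Map3k4, Map2k3, Map2k6, Mapk14, Map2k4, Map2k7 and Mapk8. They were chosen by gene symbol, and all 10 were found among the 25923 genes listed for the overexpression experiment and the 24509 listed for the knockdown experiment. RNA was sequenced from primary astrocytes, the main glial cell type of the brain, which were isolated from the cortex of wild-type C57BL/6J pups on postnatal day 3. All groups shared the same culture: growth with serum to confluence, purification, transduction, and then 1 week in serum-free medium. The overexpression experiment set 3 libraries labelled GADD45G against 3 labelled GFP, and the knockdown experiment set 3 libraries labelled shGADD45G against 3 labelled shLuc. The experiments are called after these labels, and the level of Gadd45g itself is given below. The labels name neither the vector and its promoter nor the species of the introduced GADD45G sequence nor the number of hairpins. They also leave unsaid whether replicates were separate cultures; the spread behind each p-value is that between libraries and may be technical.

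GADD45 proteins are small stress-inducible proteins without enzyme activity that bind the kinase MTK1, encoded by Map3k4, and release it from its own inhibitory domain. MTK1 then phosphorylates the kinases MKK3 and MKK6 (Map2k3 and Map2k6), which activate p38 (Mapk14), and the kinases MKK4 and MKK7 (Map2k4 and Map2k7), which activate JNK (Mapk8). In astrocytes p38 and JNK are activated by inflammatory cytokines and by injury. The cascade works through protein phosphorylation, which these RNA libraries do not measure.

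Promoter sequences are shown for the 3 Gadd45 genes, because their levels moved differently in the same libraries, and for Map2k6, because it had the largest fold change of the 10 genes in either experiment. Each is the 250 bases upstream of a RefSeq transcription start (GRCm38.p6, the assembly behind mm10), written 5' to 3' on the strand of the gene. Capitals mark matches to any of the 10 motifs searched on both strands. Positions below are those of the first base of a match, counted back from the start.

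Gadd45a, chr6:67037408-67037657, minus strand: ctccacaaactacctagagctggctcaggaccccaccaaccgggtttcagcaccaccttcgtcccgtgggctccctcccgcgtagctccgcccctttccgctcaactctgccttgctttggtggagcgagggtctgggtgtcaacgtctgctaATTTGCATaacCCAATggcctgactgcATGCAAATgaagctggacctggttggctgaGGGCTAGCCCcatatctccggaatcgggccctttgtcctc
Gadd45b, chr10:80929841-80930090, plus strand: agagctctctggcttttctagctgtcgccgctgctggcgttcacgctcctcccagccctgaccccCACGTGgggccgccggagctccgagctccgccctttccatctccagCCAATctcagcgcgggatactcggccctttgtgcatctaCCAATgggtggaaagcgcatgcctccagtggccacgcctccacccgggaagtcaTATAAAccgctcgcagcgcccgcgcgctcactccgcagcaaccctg
Gadd45g, chr13:51846425-51846674, plus strand: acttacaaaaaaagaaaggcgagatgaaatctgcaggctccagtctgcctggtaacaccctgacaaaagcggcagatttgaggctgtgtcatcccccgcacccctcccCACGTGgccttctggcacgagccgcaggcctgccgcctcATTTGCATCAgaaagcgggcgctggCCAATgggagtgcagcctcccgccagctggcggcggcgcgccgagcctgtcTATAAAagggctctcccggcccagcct
Map2k6, the first of its 3 listed starts, chr11:110398852-110399101, plus strand: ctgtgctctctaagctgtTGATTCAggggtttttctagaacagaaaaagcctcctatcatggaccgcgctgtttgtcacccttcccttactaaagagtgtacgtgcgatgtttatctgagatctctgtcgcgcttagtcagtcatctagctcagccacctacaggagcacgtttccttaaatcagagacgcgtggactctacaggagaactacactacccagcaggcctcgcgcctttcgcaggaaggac

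All 3 Gadd45 promoters held a CCAAT box, at -86 in Gadd45a, at -139 and -100 in Gadd45b and at -78 in Gadd45g. That motif was found in 37.4% of 32851 RefSeq promoter windows. Windows here and below ran from 250 bases before to 50 bases after the start, longer than the sequences printed. The octamer ATTTGCAT was present in Gadd45a at -97 and, on the other strand, at -70, and in Gadd45g at -103, against 1.74% of all windows. In Gadd45g the octamer overlapped a match at -101 to TGATGNAA, the core of ATF4 composite elements, which stood in 3.97% of windows. Gadd45b and Gadd45g each held a TATA box (TATAAA), at -46 and -27, and an E-box (CACGTG), at -185 and -142; Gadd45a held neither. The TATA box was in 13.6% of windows and the E-box in 7.15%. Gadd45a alone of the 3 held a match to the p53 decamer, at -40 (8.36% of windows). The Map2k6 window held a single match, to the AP-1 motif TGANTCA at -232 (7.81%). The 10 genes had 16 windows in all, searched over the same longer stretch. None of the 16 held the cyclic AMP response element TGACGTCA (1.79% of windows) or the NF-kB motif (4.51%), and 1, in Mapk14, held the core of the interferon response element (3.44%). These matches describe letters in a short window and say nothing of binding.

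The astrocyte identity of the libraries and their other cells were checked with marker genes, as summed CPM (counts relative to the library total, scaled within each experiment). Depth ran from 15626655 to 20756461 counts per library. All 8 astrocyte markers were detected in every group, summing to 2411 to 2420 CPM in GFP, 4077 to 4654 in GADD45G, 4467 to 4508 in shLuc and 3394 to 3545 in shGADD45G. Neuron markers summed to 238 to 244 CPM in GFP and 69.9 to 76.8 in GADD45G, with Slc17a6 at 0 in every group. Oligodendrocyte lineage markers summed to 520 to 536 CPM in GFP and 19.9 to 44.0 in GADD45G, with Sox10 at 0 in both. Microglia and macrophage markers summed to 33.9 to 36.1 CPM in GFP and to 11.2, 14.3 and 53.1 in GADD45G libraries 1 to 3. Endothelial markers ran from 136 to 144 CPM in GFP and from 14.0 to 77.0 in GADD45G. Fibroblast and mural markers ran from 941 to 966 CPM in GFP and from 436 to 651 in GADD45G. These 2 sums were lower, but single genes were mixed. Of 3 endothelial markers tested 2 were called higher and 1 lower. Of 5 fibroblast and mural markers tested 3 were called higher and 2 lower. Without GADD45G library 3 the counts were 1 higher and 1 lower, and 2 higher and 2 lower. In the knockdown experiment microglia and macrophage markers summed to 118 to 144 CPM in shLuc and 12.3 to 34.6 in shGADD45G. Neuron markers summed to 90.7 to 92.7 CPM in shLuc and 62.6 to 90.5 in shGADD45G, and 0 of the 3 tested were called. The sum of fibroblast and mural markers was higher in every shGADD45G library than in shLuc, at 404 to 620 against 319 to 327 CPM. Of the 5 of them tested, only 1 was called. GADD45G library 3 stood apart: its 7 lung and blood markers summed to 1664 CPM, against at most 0.262 in any other library. In its group shGADD45G library 1 also differed, with fibroblast and mural markers at 620 CPM against 407 and 404 in libraries 2 and 3, microglia and macrophage markers at 12.3 against 34.6 and 31.7, and neuron markers at 62.6 against 84.5 and 90.5. Some of the calls that change without either library are given below. The part of these other cells in the results below was not tested, and in bulk RNA fewer cells of a type and less RNA per cell cannot be told apart.

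In the GADD45G libraries Gadd45a and Gadd45b were higher than in GFP, Map3k4, Mapk14, Map2k4 and above all Map2k6 were lower, and Gadd45g itself was slightly higher. In the shGADD45G libraries Gadd45a, Gadd45b and Mapk8 were higher than in shLuc, and no member was called lower. Of the 10 genes 7 were called in the overexpression experiment at an adjusted p under 0.05 (3 higher and 4 lower), where 60.3% of the 15418 genes tested were called, 30.6% higher and 29.7% lower. In the knockdown experiment 3 were called, all higher, where 10.4% of 14914 genes tested were called and 5.15% were called higher and 5.27% lower. Without shGADD45G library 1 there were 5 of the 10 called, adding Mapk14 and Map2k4, and 2745 genes in all; without shLuc library 1, 2 or 3 the same 3 were called, among 539, 538 and 613 genes. All 10 genes passed the filter on low counts in both. The median log2 fold change of the 10 genes was -0.16 in the overexpression experiment, against 0.01 over all genes tested, and 0.29 in the knockdown experiment, again against 0.01. The median absolute log2 fold change was 0.30 against 0.36 over all genes, and 0.32 against 0.18.

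**Figure D1:**
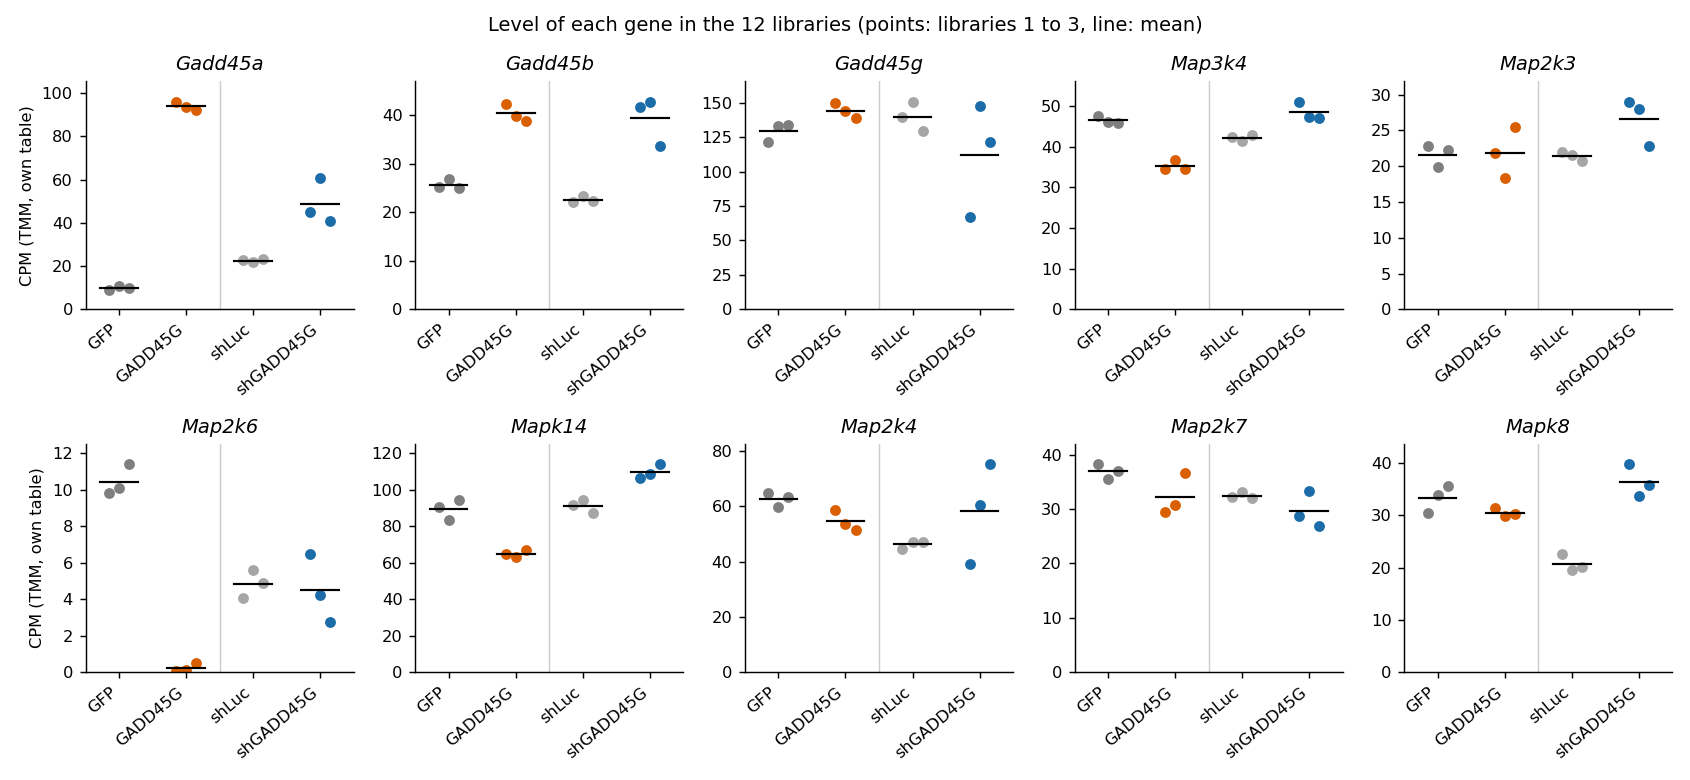
Level of each of the 10 genes in CPM (vertical axes, each starting at 0, scaled within the experiment) in libraries 1 to 3 of each group; points are libraries and the line is the mean. Gadd45a lay at 92.1 to 96.0 CPM in GADD45G libraries and at 9.01 to 10.8 in GFP, whereas Map2k6 lay at 0.0559 to 0.499 and at 9.82 to 11.4.

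Gadd45g, the targeted gene (ENSMUSG00000021453, chr13:51846678-51848468, plus strand, mm10, protein coding), encodes the family member known for its induction by cytokines. Its level was 121, 133 and 134 CPM in GFP libraries 1 to 3 and 150, 144 and 139 CPM in GADD45G libraries. The ranges did not overlap but lay close together. By edgeR's quasi-likelihood test the difference on the log2 scale was 0.15 (SE 0.05, adjusted p = 0.0298), a call that did not survive leaving out any 1 of the GFP libraries (0.0658, 0.0753 and 0.0671) or GADD45G library 1 (0.137). In the knockdown experiment it stood at 140, 151 and 129 CPM in shLuc and at 67.2, 147 and 122 CPM in shGADD45G. Only shGADD45G library 1, which also differed in its markers, was far below the controls, library 3 was just below them and library 2 lay within their range. The groups differed by -0.32 on the log2 scale (SE 0.22, adjusted p = 0.408), and by -0.05 without shGADD45G library 1. This gene was thus called in 1 of the experiments and there by a small amount, and groups are named by label throughout.

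Gadd45a (ENSMUSG00000036390, chr6:67035096-67037457, minus strand), the founding family member and a target of p53, had the largest increase of the 10 genes in both experiments. Its level was 9.01, 10.8 and 9.87 CPM in GFP and 96.0, 93.4 and 92.1 CPM in GADD45G. The groups were far apart and each was tight. Gadd45a was 9.47-fold higher, a log2 fold change of 3.24 (SE 0.06, adjusted p = 1.72e-11), and 405 of the 15418 genes tested (2.63%) had an absolute change at least as large. The knockdown experiment gave 22.7, 21.8 and 23.2 CPM in shLuc and 44.9, 60.7 and 40.9 CPM in shGADD45G. All 3 shGADD45G libraries lay above the controls, with library 2 the highest. This was a log2 fold change of 1.12 (SE 0.14, adjusted p = 0.00152), a 2.17-fold increase. An absolute change at least as large was found for 535 of 14914 genes, or 3.59%. The antisense gene E230016M11Rik overlaps Gadd45a, and 15.6% of the 50-base words in Gadd45a transcripts also occur in transcripts of that gene. Whether the counting used strand is not stated, so reads of the pair may not be told apart. E230016M11Rik held 49 counts over the GFP group, 57 over GADD45G, 116 over shLuc and 86 over shGADD45G, against 604, 5095, 1188 and 2522 for Gadd45a.

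Gadd45b (ENSMUSG00000015312, chr10:80930073-80932204, plus strand), known as an NF-kB and TGF-beta responsive member of the family, rose in both experiments. Its level was 25.3, 26.9 and 24.9 CPM in GFP and 42.3, 39.9 and 38.9 CPM in GADD45G, and the groups did not overlap. Gadd45b was higher by 0.65 on the log2 scale (SE 0.06, adjusted p = 4.79e-06). Its level in the knockdown experiment was 22.0, 23.2 and 22.3 CPM in shLuc and 41.7, 42.7 and 33.7 CPM in shGADD45G, again without overlap and with library 3 the lowest of the shGADD45G group. The log2 fold change came to 0.81 (SE 0.11, adjusted p = 0.00216). The difference between the 2 fold changes was -0.16 (SE 0.13, adjusted p = 0.323). No 50-base word was shared between transcripts of the 3 Gadd45 genes, so their reads can be told apart at that length.

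Levels of different genes were compared per length, in the FPKM the authors deposited (counts relative to gene length and library total). Gadd45g was the highest of the 10 genes in every group, at 109 ± 5.85 FPKM (SD, n = 3 here and below) in GFP, 121 ± 4.42 in GADD45G, 120 ± 9.14 in shLuc and 95.4 ± 34.8 in shGADD45G. Gadd45a was the 7th of 10 in GFP at 5.56 ± 0.507 FPKM, above Map3k4 (4.53 ± 0.0965) and not separated from Map2k3 (6.47 ± 0.463), whose range it overlapped. In GADD45G it stood second at 52.3 ± 1.05. In shLuc it was the 4th, at 12.8 ± 0.412, and in shGADD45G second at 27.6 ± 5.91, a place not separated beyond their spread from Mapk14 (25.0 ± 0.878) and Gadd45b (24.7 ± 3.09). The ranges of Map2k6 and Mapk8 also overlapped in GFP (3.00 ± 0.236 and 2.89 ± 0.224), and those of Map2k7 and Map2k3 in GADD45G (8.27 ± 1.00 and 6.49 ± 1.08). In shGADD45G those of Map2k4, Map2k3 and Map2k7 overlapped each other (12.5 ± 3.89, 8.02 ± 0.996 and 7.72 ± 0.871), and in shLuc no 2 of the 10 ranges did.

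The make-up of the family therefore differed between groups. Gadd45a gave 4.24% ± 0.216 of summed Gadd45 FPKM in GFP and 26.4% ± 0.347 in GADD45G, while the share of Gadd45g went from 83.5% ± 0.676 to 61.0% ± 0.257. In the knockdown experiment the share of Gadd45a went from 8.77% ± 0.811 in shLuc to 19.1% ± 3.91 in shGADD45G. Gadd45g went from 81.5% ± 1.23 to 63.3% ± 9.38, with shGADD45G library 1 the lowest at 52.6%. The ranges of these shares did not overlap between a group and its control. The summed level was 131 ± 6.52 FPKM in GFP, 198 ± 6.52 in GADD45G, 147 ± 9.02 in shLuc and 148 ± 38.8 in shGADD45G. The mean totals of shLuc and shGADD45G differed by less than the spread, which was wide in shGADD45G.

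**Figure D2:**
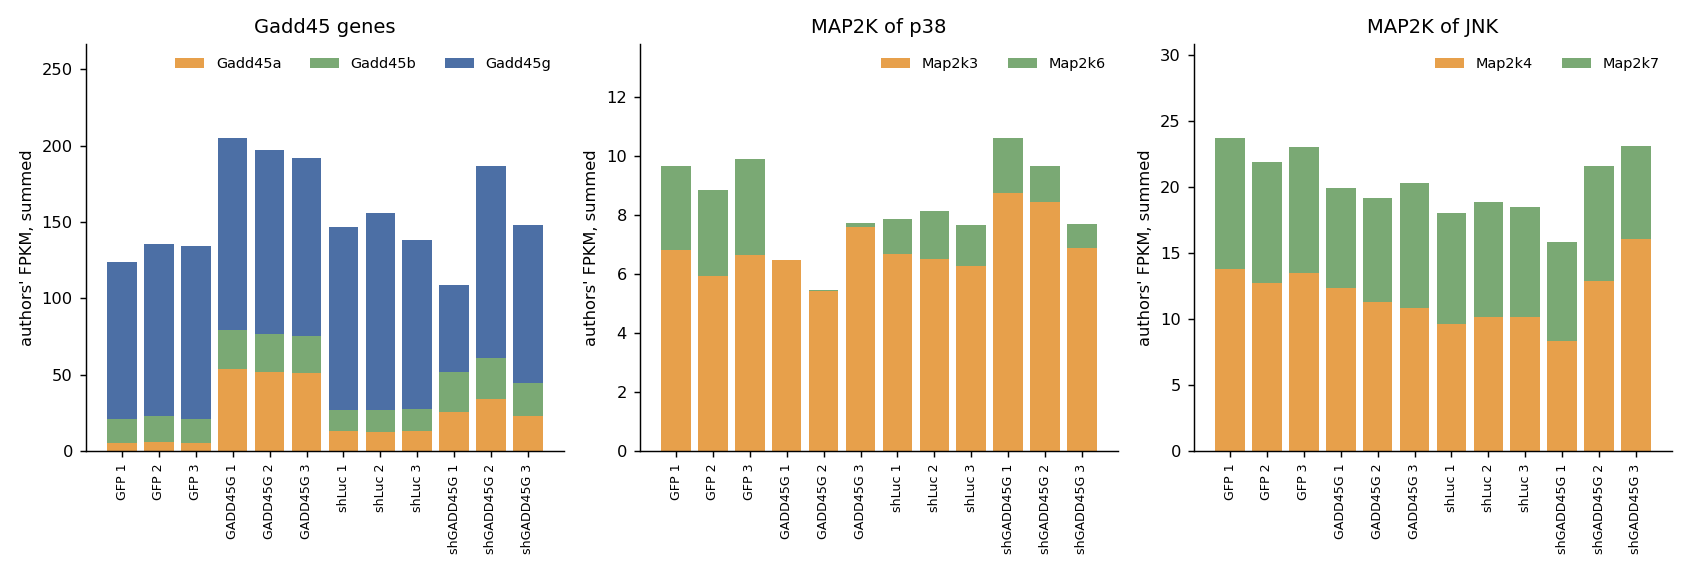
Stacked bars of the authors' FPKM in each of the 12 libraries for the 3 Gadd45 genes (left), the MAP2Ks of p38 (middle) and the MAP2Ks of JNK (right). Gadd45a is 26.4% of the Gadd45 total in GADD45G libraries and 4.24% in GFP, and Map2k6 nearly vanishes from the p38 pair in GADD45G (0.888% against 31.7%).

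Map3k4 (ENSMUSG00000014426, chr17:12227621-12318796, minus strand) encodes MTK1, the kinase that GADD45 proteins bind. Its level was 47.5, 46.1 and 45.7 CPM in GFP and 34.4, 36.7 and 34.4 CPM in GADD45G. Every GADD45G library was below every GFP library, and the log2 fold change came to -0.40 (SE 0.05, adjusted p = 4.70e-05). Levels in the knockdown experiment were 42.3, 41.5 and 42.7 CPM in shLuc and 51.0, 47.3 and 47.0 CPM in shGADD45G. There the treated libraries were all above the controls, but the log2 fold change of 0.20 (SE 0.08) did not pass the test (adjusted p = 0.166).

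Map2k3 and Map2k6 encode the MAP2Ks that act on p38, and they differed from each other. Map2k6 (ENSMUSG00000020623, chr11:110399122-110525522, plus strand) held 192, 211 and 233 counts in GFP and 1, 2 and 9 counts in GADD45G, or 9.82, 10.1 and 11.4 CPM against 0.0559, 0.109 and 0.499 CPM. The groups were far apart, and GADD45G library 3, the library with lung and blood markers, was the highest of its group. The log2 fold change came to -5.52 (SE 0.40, adjusted p = 4.44e-07), a 45.9-fold difference, and -6.87 without GADD45G library 3. An absolute change at least as large was found for 102 genes (0.662%). Map2k6 in the knockdown experiment was low in both groups, at 4.08, 5.61 and 4.86 CPM in shLuc and 6.46, 4.22 and 2.75 CPM in shGADD45G. The groups overlapped, and the log2 fold change came to -0.11 (SE 0.29, adjusted p = 0.860).

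Map2k3 (ENSMUSG00000018932, chr11:60932033-60952811, plus strand) was at 22.8, 19.8 and 22.2 CPM in GFP and 21.8, 18.3 and 25.5 CPM in GADD45G, and the groups overlapped throughout. Its log2 fold change came to 0.02 (SE 0.11, adjusted p = 0.913), a value whose sign turned with upper quartile scaling. Its knockdown values were 22.0, 21.5 and 20.7 CPM in shLuc and 29.0, 28.1 and 22.8 CPM in shGADD45G. All shGADD45G libraries were above the controls, library 3 narrowly. The log2 fold change of 0.32 (SE 0.12, adjusted p = 0.122) was not called, but was called without shGADD45G library 3 (0.42, adjusted p = 0.0233). As a share of summed Map2k3 and Map2k6 FPKM, Map2k6 was 31.7% ± 2.08 in GFP and 0.888% ± 0.847 in GADD45G, and 17.9% ± 2.51 in shLuc and 13.6% ± 3.72 in shGADD45G. The sum itself was 9.47 ± 0.554 FPKM in GFP and 6.55 ± 1.14 in GADD45G.

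Mapk14 (ENSMUSG00000053436, chr17:28691329-28748406, plus strand) encodes p38 alpha, the main p38 kinase of most tissues. Its level was 90.2, 83.5 and 94.4 CPM in GFP and 64.9, 63.0 and 66.9 CPM in GADD45G. No GADD45G library reached the GFP range, and the log2 fold change came to -0.46 (SE 0.06, adjusted p = 2.70e-05). The knockdown experiment gave 91.5, 94.3 and 87.2 CPM in shLuc and 106, 109 and 114 CPM in shGADD45G. The shGADD45G libraries were all higher, and the log2 fold change of 0.27 (SE 0.08) lay at the threshold, with an adjusted p of 0.0506. It was called by DESeq2 (adjusted p = 0.0388), without shGADD45G library 1 (0.0188) and in the authors' deposited table (0.0400). AC170998.1, a small gene on the same strand inside Mapk14, held 11 counts over GFP, 2 over GADD45G, 4 over shLuc and 5 over shGADD45G, against 5441, 3527, 4803 and 5620 for Mapk14.

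Map2k4 and Map2k7 encode the MAP2Ks that act on JNK. Map2k4 (ENSMUSG00000033352, chr11:65688243-65788297, minus strand) was at 65.0, 59.8 and 63.6 CPM in GFP and 58.8, 53.8 and 51.5 CPM in GADD45G. The groups did not overlap, though GADD45G library 1 came close, and the log2 fold change came to -0.20 (SE 0.06, adjusted p = 0.0122). In shLuc it was at 44.6, 47.3 and 47.3 CPM and in shGADD45G at 39.1, 60.4 and 75.2 CPM. The shGADD45G libraries lay on both sides of the controls, with library 1, the library that differed in its markers, below them. Their log2 fold change came to 0.33 (SE 0.19, adjusted p = 0.322), and 0.55 (adjusted p = 0.00439) without shGADD45G library 1.

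Map2k7 (ENSMUSG00000002948, chr8:4238740-4247897, plus strand) was at 38.2, 35.5 and 37.0 CPM in GFP and 29.4, 30.7 and 36.6 CPM in GADD45G. GADD45G library 3 lay within the GFP range and the other 2 below it. This gave a log2 fold change of -0.19 (SE 0.08, adjusted p = 0.0592), and -0.29 (adjusted p = 0.00108) without GADD45G library 3. Its values in the knockdown experiment were 32.2, 33.2 and 31.9 CPM in shLuc and 28.7, 33.4 and 26.8 CPM in shGADD45G, with overlap, and the log2 fold change came to -0.13 (SE 0.11, adjusted p = 0.491). Its values are uncertain, since 32.8% of the 50-base words in its transcripts also occur in transcripts of Gm49320.

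Mapk8 (ENSMUSG00000021936, chr14:33377898-33447158, minus strand) encodes JNK1, the kinase at the end of the JNK branch. Its level was 30.4, 33.9 and 35.6 CPM in GFP and 31.5, 29.9 and 30.2 CPM in GADD45G. The groups overlapped, and the log2 fold change came to -0.13 (SE 0.07, adjusted p = 0.148). In the knockdown experiment it was at 22.6, 19.6 and 20.2 CPM in shLuc and 39.8, 33.7 and 35.9 CPM in shGADD45G. Here the groups were well apart, with a log2 fold change of 0.81 (SE 0.11, adjusted p = 0.00177), a 1.76-fold increase.

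**Figure D3:**
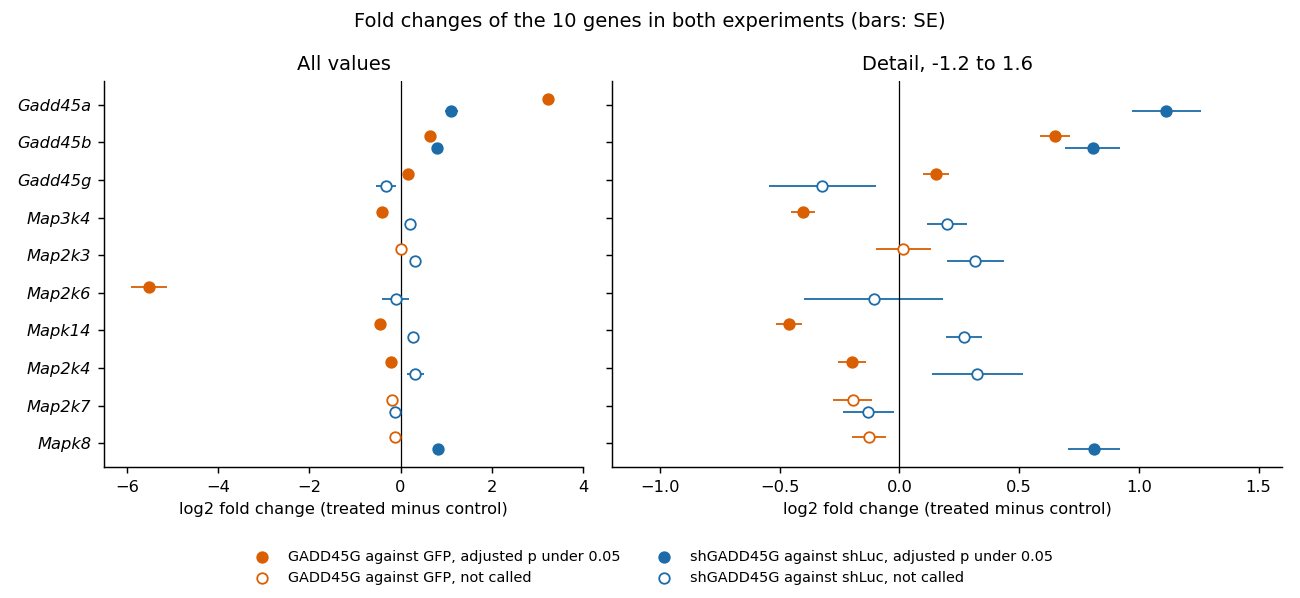
Log2 fold change of the 10 genes, treated minus control, in both experiments (points; bars are SE; filled where the adjusted p is under 0.05), over the whole range (left) and in detail (right, where points beyond -1.2 and 1.6 are not drawn). Map3k4 and Mapk14 lie left of 0 for GADD45G against GFP (-0.40 and -0.46) and right of it for shGADD45G against shLuc (0.20 and 0.27).

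Groups that did not overlap were counted too. In the overexpression experiment 3 of the 10 genes lay wholly above and 4 wholly below the GFP libraries, where 66.5% of all genes tested did not overlap (33.7% above and 32.8% below). In the knockdown experiment 6 lay wholly above and 0 below the shLuc libraries, where 32.5% of all genes did not overlap (16.1% of all genes above and 16.4% below). The 6 were Gadd45a, Gadd45b, Map3k4, Map2k3, Mapk14 and Mapk8.

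Whether a gene responded differently in the 2 experiments, which share no library, was tested as the difference of their fold changes in all 12 libraries. Of the 10 genes 5 were called, 1 higher and 4 lower in the overexpression experiment relative to the knockdown experiment, where 41.0% of 15900 genes tested were called (20.2% higher and 20.7% lower). Gadd45a rose more in the overexpression experiment, by 2.12 on the log2 scale (SE 0.17, adjusted p = 2.41e-07). The difference was -5.42 for Map2k6 (SE 0.57, adjusted p = 2.95e-06) and -0.95 for Mapk8 (SE 0.13, adjusted p = 2.84e-05). For Mapk14 it was -0.74 (SE 0.09, adjusted p = 1.37e-05), and for Map3k4 -0.61 (SE 0.09, adjusted p = 7.23e-05). The kinase at the head of the cascade and p38 alpha thus differed between the experiments, with a called decrease in one and an uncalled positive value in the other. The remaining 5 genes were not called: Gadd45b, Gadd45g (0.47, adjusted p = 0.171), Map2k3 (-0.31, adjusted p = 0.167), Map2k4 (-0.53, adjusted p = 0.0719) and Map2k7 (-0.07, adjusted p = 0.703). Of these, 4 passed the threshold when 1 library was left out: Gadd45b without shGADD45G library 3 (-0.25, adjusted p = 0.0444), Gadd45g without shGADD45G library 2 (0.75, 0.0202), Map2k3 without GADD45G library 3 (-0.44, 0.0479) and Map2k4 without shGADD45G library 1 (-0.75, 0.000116). Without shGADD45G library 1 the difference for Gadd45g was 0.20, and without shGADD45G library 3 that for Map2k4 was -0.30.

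Other genes of the pathway were read from 8 lists with 79 genes tested in each experiment. In GADD45G libraries 57 of the 79 were called, 33 higher and 24 lower (72.2%, against 60.3% of all genes), and in shGADD45G libraries 8 were called, 4 in each direction (10.1%, against 10.4%). The second share is near the background. Counts of the lists below stand against 30.6% of all genes called higher and 29.7% lower in GADD45G, and 5.15% and 5.27% in shGADD45G. With 1 library left out, the knockdown counts of the lists on p38-activated kinases, transcription factors acted on, partners and factors acting on Gadd45 genes each stayed between 0 and 2. Values in parentheses below are log2 fold changes, and a gene said to rise or fall passed edgeR's test.

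Among other p38 and JNK isoforms 2 of 5 were higher and 1 was lower in GADD45G, and 0 were called in shGADD45G. Mapk10, the JNK isoform best known from neurons, rose from 80.4 ± 0.623 to 112 ± 11.1 CPM (log2 fold change 0.48), and Mapk9, a widely expressed JNK, fell from 106 ± 3.09 to 85.5 ± 2.87 CPM (-0.31). Mapk12, p38 gamma, was 0.46 higher, a call lost without any single GFP library or GADD45G library 3. Of 19 other MAP3Ks and their adaptors 7 were higher and 5 lower in GADD45G, among them Map3k20 (the stress kinase ZAK, 0.59), Taok2 (-0.49) and Tab1, an adaptor that binds TAK1 and p38 (-0.56). In shGADD45G 1 of the 19 was higher, the TAK1 adaptor Tab3 (0.44), and 1 lower, Map3k12, the JNK pathway kinase DLK (-0.32); both calls were lost without any single shLuc library, and without shGADD45G library 1 the count was 4.

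All 6 scaffolds of the JNK and p38 modules, proteins that hold the kinases of a cascade together, were called lower in GADD45G, with a list median of -0.50 against 0.01 over all genes. The call of Spag9, the scaffold JIP4 (-0.11, adjusted p = 0.0466), was lost without GFP library 1 (0.150) or GADD45G library 2 (0.118), which leaves 5 of 6. Mapk8ip2, the JNK scaffold JIP2, fell from 28.3 ± 1.58 to 6.21 ± 0.871 CPM (log2 fold change -2.19). Sh3rf1, the scaffold POSH, fell from 43.4 ± 0.998 to 18.6 ± 1.56 CPM (-1.22), and Mapk8ip3, JIP3, by 0.31 on the log2 scale. In shGADD45G 3 of 6 fell and 0 rose, with a median of -0.28. Mapk8ip2 fell from 15.8 ± 0.811 to 6.44 ± 0.988 CPM (-1.29, adjusted p = 0.00101), Arrb2, which encodes beta-arrestin 2, from 22.5 ± 1.67 to 12.4 ± 1.63 CPM (-0.85), and Mapk8ip1, JIP1, by 0.32, the last a call lost without any single shLuc library. Without shGADD45G library 1 the count was 5. The sums of neuron, oligodendrocyte lineage, endothelial, and fibroblast and mural markers were also lower in GADD45G. Some endothelial and some fibroblast and mural genes were called higher. The sum of astrocyte markers was higher in GADD45G. In shGADD45G the sums of microglia and macrophage markers and of astrocyte markers were lower. There the sum of fibroblast and mural markers was higher, though only 1 of 5 tested was called. The values are given above. The part of these cells in the fall of the scaffolds was not tested.

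Downstream of p38, 2 of 7 p38-activated kinases were higher in GADD45G and 2 lower, while 0 of 7 were called in shGADD45G. Mknk2, which phosphorylates the translation factor eIF4E, was 0.49 higher and Mapkapk3, a p38 substrate kinase, 0.54 higher; Rps6ka4, the nuclear kinase MSK2, was 0.60 lower (log2 fold change -0.60). Of 10 transcription factors acted on by p38 or JNK 6 were higher and 0 lower in GADD45G. Over all genes tested 60.3% were called there, 30.6% higher and 29.7% lower. Ddit3, the stress factor CHOP, rose from 23.6 ± 0.835 to 84.1 ± 6.40 CPM (1.83), Jund from 67.4 ± 1.82 to 169 ± 10.1 CPM (1.32) and Jun from 161 ± 8.09 to 259 ± 13.7 CPM (0.69). Ddit3 was the 1 called in shGADD45G (0.70, adjusted p = 0.00770), a call lost without shLuc library 1 (0.0516) or 3 (0.0532).

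The genes listed as phosphatases of p38 and JNK were mixed in GADD45G, with 4 of the 10 tested higher and 3 lower. In shGADD45G 0 of 10 were called. The GADD45G count of 7 became 10, with 5 in each direction, without GADD45G library 3, and 5 without GFP library 2 or 3. Dusp16, a phosphatase of JNK, was 0.92 higher, whereas the log2 fold change was -1.05 for Dusp4 and -0.61 for Dusp10. Of 8 other partners of GADD45 proteins 2 were higher and 3 lower in GADD45G, a count of 5 that fell to 3 without GFP library 2 or 3. Cdkn1a, which encodes the cell cycle inhibitor p21, rose from 524 ± 11.3 to 798 ± 49.6 CPM (0.61), while Tdg, a DNA glycosylase of DNA demethylation, and Ccnb1, the mitotic cyclin B1, fell by 0.52 and 0.81. In shGADD45G 1 of 8 was called, Ercc5, a nuclease of DNA repair (0.44), a call lost without shLuc library 1 (0.0602) or 2 (0.0518). Cdkn1a stood at 0.60 (adjusted p = 0.0540) and was called without shGADD45G library 1 (0.00549) or 3 (0.0173).

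All 14 transcription factors known to act on Gadd45 genes were called in GADD45G, 10 higher and 4 lower, with a median of 0.36. The 4 lower were Egr1 (-0.68), Brca1 (-0.54), Foxo4 (-0.40) and Zfp148 (-0.38). With 1 library left out, 12 to 14 were called: Brca1 lost its call without GFP library 1 (0.107) or 2 (0.0794) or GADD45G library 2 (0.104), and Smad4 without GFP library 2 (0.0589) or GADD45G library 1 (0.0565). Atf4, a factor of the integrated stress response, rose from 76.8 ± 2.00 to 170 ± 5.71 CPM (1.15), Myc from 3.07 ± 0.386 to 17.8 ± 1.11 CPM (2.53) and Foxo3 from 198 ± 2.75 to 270 ± 15.7 CPM (0.45). In shGADD45G 1 of 14 was called, Atf4 (0.64, adjusted p = 0.0113), a call lost without any single shLuc library (0.0527, 0.0668 and 0.0682).

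**Figure D4:**
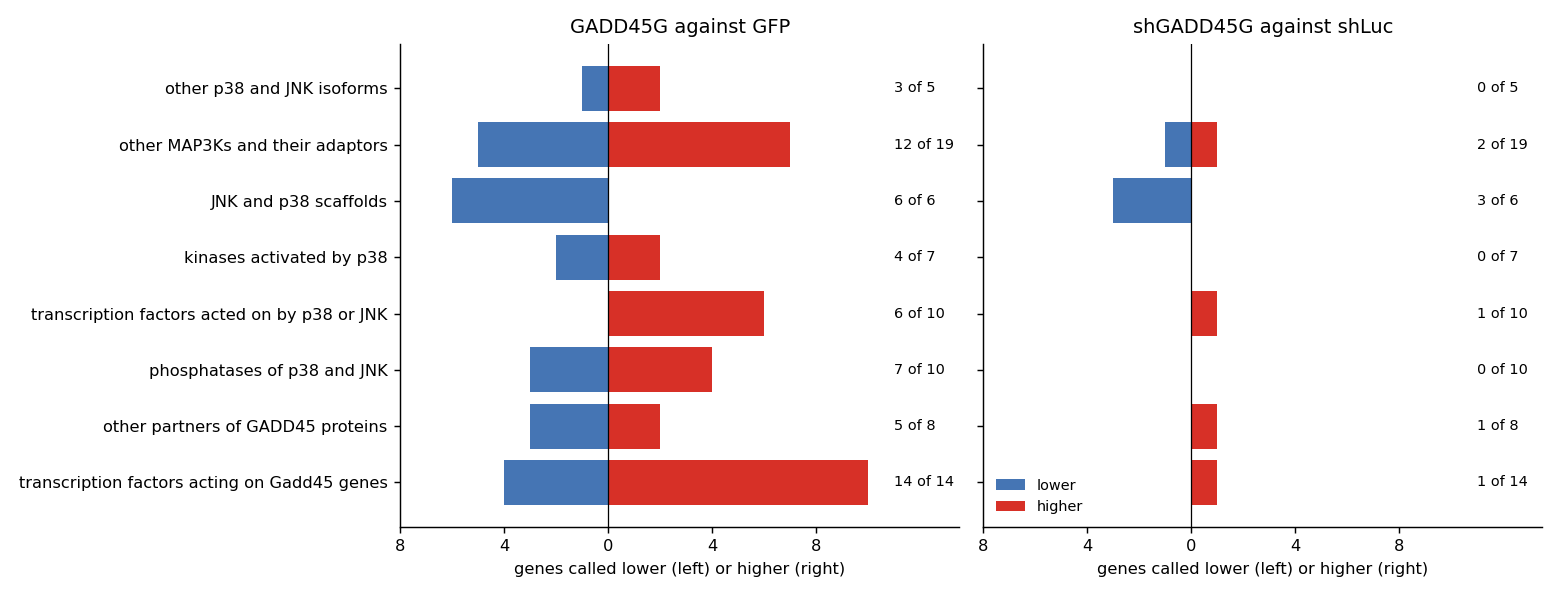
Number of genes called lower (left of 0) or higher (right of 0) in each of the 8 pathway lists, with the number called of the number tested, for GADD45G against GFP (left panel) and shGADD45G against shLuc (right panel). The 6 scaffolds are all on the lower side in the left panel, and 3 of them in the right panel.

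The genes closest to each Gadd45 gene in pattern were found by the root mean square difference of log2 CPM, each gene centred on its own mean, over the 12 libraries on a joint scale and among 12806 genes. For Gadd45a they were Rtp4 (0.246), Xaf1 (0.249) and Trim30a (0.260). Rtp4 had a mean of 16.1 CPM in GFP, 133 in GADD45G, 33.5 in shLuc and 62.7 in shGADD45G, beside 9.86, 92.7, 22.7 and 49.1 CPM for Gadd45a on that scale. For Gadd45b they were Krtcap2 (0.104), Plekhg2 (0.106) and Tmem230 (0.117), and for Gadd45g Itpk1 (0.0739), Eef1akmt1 (0.0904) and Vps33a (0.0932). The SD of log2 CPM over the 12 libraries was 1.19 for Gadd45a, 0.37 for Gadd45b and 0.30 for Gadd45g, so the distances of the 3 genes start from different spreads. The 3 Gadd45 genes were not close to each other, at 0.917 between Gadd45a and Gadd45b, 1.22 between Gadd45a and Gadd45g and 0.525 between Gadd45b and Gadd45g. The closest pair among the 10 genes was Map3k4 and Mapk14, at 0.142, and the member nearest to Map2k6 was Mapk14, at 1.31.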

How the data were processed

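The 12 libraries were grouped by their labels. Columns named G45g, shG45g and shCtrl were taken as GADD45G, shGADD45G and shLuc, with the replicate numbers they carry, and neither table held columns of other samples (0). The authors deposited read counts per gene, used for all tests here. Reads were aligned with STAR 2.5 to mm10 and counted with HTSeq 0.6.1, per the submitters' processing notes, which also name DESeq2. Signal columns deposited beside them are counts divided by 1 size factor per library, and were not used. The FPKM the authors deposited gave levels per length. The log2 fold changes and p-values the authors deposited were used only where named as theirs. The 10 genes and the lists were chosen with earlier results of these data known.

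The 6 libraries of an experiment were fitted together in edgeR 4.0.16 (R 4.3.3): TMM factors, filterByExpr, the quasi-likelihood F test and Benjamini-Hochberg adjustment over all genes tested, called under 0.05. CPM use those factors. Fold changes are log2, treated minus control. The difference of fold changes and the joint scale used all 12 libraries. The likeness measure added 0.5 to the CPM, among genes averaging 1 CPM or more. Named pathway genes were up to 3 per list and experiment with the smallest p among those called. Exceptions were Cdkn1a in the knockdown experiment, Spag9, Brca1, Smad4, Egr1, Foxo4 and Zfp148, which were named after their values were seen. Shared 50-base words were counted in GENCODE M21 transcripts. The steps were also run on simulated counts, but no outcome is given here, so the results draw no support from that run. Alternatives were RLE and upper quartile factors, DESeq2 1.42.0, limma-voom (limma 3.58.1), no filter, a filter of 1 CPM in 3 libraries, leaving out each library, the replicate number as a block, and all 12 libraries in 1 fit. Counts per list with each library left out were added after seeing the data. Depth was 15626655 to 20756461 counts per library, and genes with few counts, such as Map2k6 in GADD45G, are the least precise.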

Additional observations from a re-analysis of the deposited data

How the results depend on the processing

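The calls of Gadd45a, Gadd45b, Map3k4, Map2k6 and Mapk14 in the overexpression experiment, of Gadd45a, Gadd45b and Mapk8 in the knockdown experiment, and of Gadd45a, Map3k4, Map2k6, Mapk14 and Mapk8 in the difference kept their direction and passed the threshold under every alternative run. The cause of the changes below was not tested. The genes called in the knockdown experiment numbered 538 to 2745 with 1 library left out (539, 538 and 613 without shLuc 1, 2 and 3, and 2745 without shGADD45G 1) and 2670 in a fit of all 12 libraries. The members called there were 3 to 5 with 1 library left out and 5 in the fit of all 12. In the overexpression experiment they were 6 to 8 with 1 library left out, 8 by limma-voom and 5 in the fit of all 12, where Gadd45g (adjusted p = 0.551) and Map2k4 (0.280) lost their calls; Gadd45g also lost its call without a filter (0.0877). Uncalled values that changed sign were Map2k3 in the overexpression experiment (-0.0057 with upper quartile factors, -0.11 to 0.16 with 1 library left out), Map2k6 in the knockdown experiment (-0.47 to 0.14) and the difference for Map2k7 (-0.18 to 0.054).

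Deviations of same-numbered libraries from their group means were weakly correlated. In the overexpression experiment r was -0.0048, -0.0089 and 0.0121, and in the knockdown experiment -0.0244, 0.0803 and 0.0439. Differently numbered libraries gave -0.0219 to 0.0293 and -0.0758 to 0.0270. With 3 libraries per group these values cannot decide whether the numbers pair the samples. With the replicate number as a block, 8948 and 1570 genes were called against 9300 and 1554. The members called were 6, 3 and 6 in the overexpression experiment, the knockdown experiment and the difference, with Gadd45g at an adjusted p of 0.0532 in the first and Map2k4 at 0.0466 in the difference.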

Other observations

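The control groups of the 2 experiments also differed in level for some of the 10 genes, on a joint scaling of both tables (CPM, mean ± SD, n = 3). Gadd45a stood at 9.86 ± 0.912 CPM in GFP and 22.7 ± 0.716 in shLuc. Map2k6 stood at 10.4 ± 0.825 in GFP and 4.89 ± 0.771 in shLuc, and Mapk8 at 33.2 ± 2.62 and 20.9 ± 1.62. Gadd45b (25.6 ± 1.08 and 22.7 ± 0.638) and Mapk14 (89.1 ± 5.31 and 91.8 ± 3.68) were closer. No test of these differences was made, and control vector and experiment cannot be told apart. On this scale the level of Mapk8 in shGADD45G, 36.6 ± 3.13 CPM, lay near that of GFP, and Gadd45a in shLuc lay between its GFP and GADD45G (92.7 ± 1.94) levels.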
